A study of Mus musculus with 11 samples.

Results

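The genes analysed were the 8 that encode the hemidesmosome of the epidermal basal cell and chains of its laminin-332 ligand: *Itga6*, *Itgb4*, *Cd151*, *Col17a1*, *Plec*, *Dst*, *Lama3* and *Lamb3*. They were chosen by name among the 55536 Ensembl genes of each deposited count file, and all 8 were among the 20307 genes that passed the filter on low counts. RNA was measured in 11 libraries of cells sorted by FACS from the dorsal skin of male CD4Cre R26-tdT (C57Bl6/N) mice of 29 or 32 weeks, and the cells of 2 mice were pooled for each biological replicate. All mice of the 4 groups carried both alleles. In these mice Cre is expressed from a *Cd4* transgene, and the tdTomato reporter in the Rosa26 locus marks cells that express Cre and the progeny of cells that did. The groups were tdT+ CD49f+CD34+SCA-1neg (3 libraries), tdTneg CD49f+CD34+SCA-1neg (3), tdT+ CD49f+CD34+SCA-1+ (3) and tdTneg CD49f+CD34+SCA-1+ cells (2), called tdT+ and tdTneg SCA-1neg or SCA-1+ cells below.

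Hemidesmosomes anchor basal keratinocytes to the basement membrane. The integrin α6β4 binds laminin-332, a laminin that holds the α3 and β3 chains, on the outside of the cell, and on the inside plectin and the epithelial isoform of dystonin (BP230) connect it to the keratin filaments of K5 and K14. Collagen XVII (BP180) spans the membrane beside the integrin, and the tetraspanin CD151 associates with laminin-binding integrins. Loss of these components is known to cause blistering of the skin, and the integrin α6 (CD49f) is the antigen by which basal and follicular keratinocytes are commonly sorted. Here CD49f was an antigen of the sort in all 4 groups, so that the groups were not selected to differ in it.

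The counts on genes per library ranged from 17409131 to 46542177. Besides the Ensembl genes each file has 1 row of unstated identity. It held 133 to 307 CPM (counts per 1e6 counts of the library) in 5 of the 6 tdT+ libraries and 2.54 to 4.89 CPM in the 5 tdTneg libraries. In the library labelled tdT+ SCA-1neg replicate 2 it held 2.05 CPM, which goes against the label. Other values of this library were above those of every tdTneg SCA-1neg library, like those of tdT+ SCA-1neg replicates 1 and 3: the 8 T cell markers summed to 112 normalized CPM and the 8 markers of interfollicular epidermis and upper follicle to 4582, where the tdTneg SCA-1neg libraries had 26.9 to 38.7 and 977 to 2102. No call of the 8 genes in any of the 6 comparisons was gained or lost without this library, and values without it stand beside the main results. *Ly6a*, the gene of SCA-1, ranged from 153 to 294 normalized CPM in SCA-1+ and from 2.46 to 59.2 in SCA-1neg libraries. *Cd34* was at 468 to 1130 normalized CPM in SCA-1neg cells, at 320 to 383 in tdTneg SCA-1+ cells and at 22.3 to 35.7 in tdT+ SCA-1+ cells, although all were sorted as CD34+. The 4 basal keratinocyte markers were present in every library (18302 to 34199 normalized CPM in sum). Summed over 8 endothelial markers, none of them at 0 in any library, the level was 1814 to 1877 normalized CPM in tdTneg SCA-1+ libraries, 38.1 to 68.3 in tdT+ SCA-1+, 34.5 to 104 in tdTneg SCA-1neg and 6.50 to 476 in tdT+ SCA-1neg libraries, with the 476 in replicate 2. The 8 T cell markers summed to 512 to 1201 normalized CPM in tdT+ SCA-1+, 185 to 196 in tdTneg SCA-1+, 87.3 to 112 in tdT+ SCA-1neg and 26.9 to 38.7 in tdTneg SCA-1neg libraries, also with none at 0. In such bulk libraries, fewer cells of a type and less RNA per cell cannot be told apart.

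*Col17a1*, *Dst* and *Lamb3* are 3 of 6 genes that varied together between libraries of a group, and the stretches before their transcription starts are shown as examples. For *Dst* and *Lamb3* 1 of 2 windows is shown. The sequences are those of RefSeq on GRCm38.p6, written 5′ to 3′ on the strand of the gene, and exon bases of the Ensembl annotation were left out. They are chr19:47692095-47692292 (minus strand) for *Col17a1*, chr1:34160010-34160259 (plus strand) for the start of *Dst* that lies inside the locus, and chr1:193301744-193301992 (plus strand) for *Lamb3*. Capitals mark every match on either strand to the E-box CANNTG, to TATAAA, to CCAAT, to the GC box GGGCGG or to the AP-1 motif TGANTCA.
Col17a1: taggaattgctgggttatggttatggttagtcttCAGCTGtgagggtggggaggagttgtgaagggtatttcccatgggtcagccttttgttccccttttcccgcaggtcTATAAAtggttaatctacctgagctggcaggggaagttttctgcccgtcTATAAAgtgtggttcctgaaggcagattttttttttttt
Dst: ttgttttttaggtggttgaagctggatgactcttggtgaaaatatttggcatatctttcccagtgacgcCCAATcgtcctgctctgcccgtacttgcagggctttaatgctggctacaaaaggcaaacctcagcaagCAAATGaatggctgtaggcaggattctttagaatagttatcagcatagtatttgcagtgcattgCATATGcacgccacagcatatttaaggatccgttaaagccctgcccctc
Lamb3: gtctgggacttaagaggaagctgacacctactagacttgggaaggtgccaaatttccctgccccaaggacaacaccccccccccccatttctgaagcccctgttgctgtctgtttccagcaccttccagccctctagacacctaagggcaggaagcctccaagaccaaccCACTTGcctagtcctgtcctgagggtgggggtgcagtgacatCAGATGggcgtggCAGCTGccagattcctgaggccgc
Of the motifs searched, the E-box was in all 3 windows, with 2 matches in the 250 bases before the RefSeq start of *Col17a1*, 2 in *Dst* and 3 in *Lamb3*, and 66.2% of 32851 mouse promoters of the same length held at least 1. *Col17a1* held TATAAA at 140 and 91 bases before the start (12.4% of promoters hold it), *Dst* held CCAAT at 181 bases before the start (33.8%), and *Col17a1* had a CCAAT match and 1 of its E-box matches among the 52 bases that are not printed. None of the 3 stretches shown held the AP-1 letters (6.75%) or the GC box (32.7%), but the other window of *Dst* held 4 GC boxes, at 92, 85, 73 and 35 bases before its start. These matches are letters only, and counts per gene do not tell which start was used. Sequences of the other 5 genes are not shown here.

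Levels per length differed widely among the 8 genes. As the mean of the 4 groups, in normalized CPM per kb of exon, *Col17a1* was at 920, which ranked 28th of 20307 genes, followed by *Itgb4* at 102, *Itga6* at 88.9, *Lamb3* at 87.8, *Plec* at 64.4, *Cd151* at 63.9, *Dst* at 37.4 and *Lama3* at 31.2, which ranked 1338th. The exon lengths of *Dst* (41155 bases) and *Plec* (18113 bases) include exons of isoforms of other tissues, so that their levels per kb are lower than those of a single epithelial isoform would be. That of *Lama3* (10745 bases) likewise covers a long and a short annotated transcript, which span 249195 and 78815 bases of the genome. Its level per kb may thus be too low for the short transcript. Neighbours in this order overlapped in their ranges over libraries, except that every library of *Col17a1* (672 to 1264 per kb) lay above every library of the other 7 genes. Antisense or neighbouring genes share exon bases with *Itgb4*, *Dst*, *Plec*, *Cd151* and *Lama3*, and the strand setting of the counting is not given in the sources used here. Their own counts came to at most 1.05% of the counts of *Itgb4*, 5.48% of *Dst*, 5.58% of *Plec* (*Parp10*), 2.07% of *Cd151* and 0.254% of *Lama3* in any library.

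**Figure D1:**
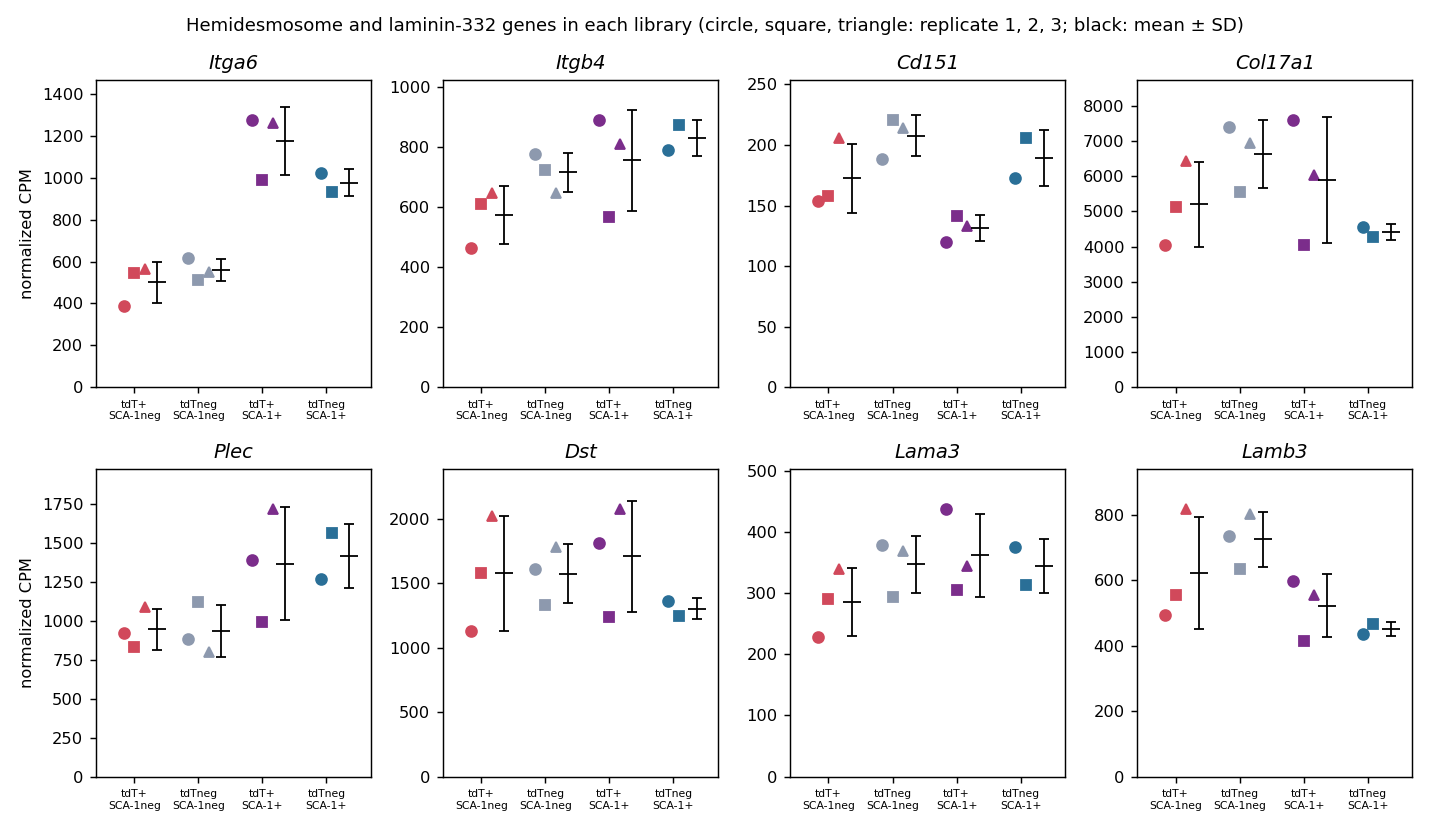
Normalized CPM of the 8 genes (y axis, linear from 0) in each of the 11 libraries by sorted group (x axis), with circles, squares and triangles for replicates 1, 2 and 3 and black marks for the group mean ± SD. *Itga6* is the gene whose 5 SCA-1+ libraries (932 to 1276) all lie above its 6 SCA-1neg libraries (387 to 615).

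Which anchorage genes differ between SCA-1+ cells and the SCA-1neg cells of the bulge was asked first. Of the 8 genes, 1 was called higher in SCA-1+ cells and 0 lower (edgeR quasi-likelihood test on all 11 libraries, called at a Benjamini-Hochberg adjusted p under 0.05 with a log2 fold change past 1 in size, as the mean over tdT status), where 11.6% of all genes tested were called, 4.77% higher and 6.79% lower. The share of the 8 is thus near that of all genes. Their median log2 fold change was 0.04, against -0.09 over all genes, and they ranged from -0.47 to 1.02. Two-sided tests were used throughout, replicates of 1 group are pools of different mice, and libraries of 1 replicate number in different groups were taken to share theirs.

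*Itga6* (ENSMUSG00000027111, chromosome 2 of GRCm38, 71745616 to 71858416) had 387, 547 and 566 normalized CPM in tdT+ SCA-1neg, 615, 512 and 548 in tdTneg SCA-1neg, 1276, 988 and 1260 in tdT+ SCA-1+ and 1021 and 932 in tdTneg SCA-1+ libraries. The 5 SCA-1+ libraries were all above the 6 SCA-1neg libraries, a separation that 10.8% of all genes showed in 1 direction or the other. The level was 2.03-fold higher in SCA-1+ cells (95% confidence interval 1.63 to 2.52; log2 fold change 1.02, standard error 0.14, edgeR adjusted p = 0.00112). This value sits just above the fold threshold. It was just under it, between 0.94 and 0.99, without 1 of the libraries tdT+ SCA-1neg replicate 1, tdTneg SCA-1neg replicate 2, tdT+ SCA-1+ replicate 1, tdT+ SCA-1+ replicate 3 or tdTneg SCA-1+ replicate 1, while the adjusted p of the model fits was at most 0.00929 in all 17 alternatives. Without the library labelled tdT+ SCA-1neg replicate 2 it was 1.05 (edgeR adjusted p = 0.00223). Within tdT+ cells the log2 fold change was 1.23 (standard error 0.19, edgeR adjusted p = 0.00319), a called rise where 8.45% of genes were called. It was 1.30 without the library labelled replicate 2 (edgeR adjusted p = 0.00883). No other of the 8 genes was called there, and 2 of the 8, *Itga6* and *Cd151*, did not overlap, where 30.4% of genes did not. Within tdTneg cells it was 0.81 (standard error 0.21, edgeR adjusted p = 0.0504), and *Itga6* was not called where 4.74% of genes were. None of the 8 was called in tdTneg cells by edgeR, DESeq2 or limma, and 3 of the 8 (*Itga6*, *Lamb3* and *Plec*) had an unadjusted p under 0.05, where 21.1% of genes did. Over the alternatives their log2 fold changes were 0.73 to 0.92, -0.77 to -0.56 and 0.49 to 0.75, all short of the fold threshold. For each of these 3 genes the adjusted p was under 0.05 in part of the alternatives. At 29 weeks (2 SCA-1+ and 2 SCA-1neg libraries) the log2 difference of *Itga6* averaged 1.23, and at 32 weeks (3 and 4) it averaged 0.91. The 29-week libraries were all of replicate 1, so that age and pool of mice cannot be told apart.

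The markers of other cells stood as follows beside *Itga6*. *Itga6* was at 988 to 1276 normalized CPM in tdT+ SCA-1+ libraries, whose endothelial sum was at most 68.3, and at 932 and 1021 in the tdTneg SCA-1+ libraries, whose sum was at least 1814. Among the tdT+ SCA-1+ libraries the T cell sum was highest in replicate 2 (1201 normalized CPM), which had the lowest *Itga6* of that group, and lowest in replicate 1 (512), which had the highest. Between the populations the T cell sum moved in the direction of *Itga6*, with 185 to 1201 normalized CPM in SCA-1+ and 26.9 to 112 in SCA-1neg libraries, and the sum of 6 melanocyte markers moved the other way, with 15.4 to 57.1 in SCA-1+ and 93.5 to 159 in SCA-1neg libraries. Of the 6 Langerhans cell markers, *Cd207* and the MHC class II pathway genes *H2-Aa*, *H2-Ab1*, *H2-Eb1* and *Cd74* were called higher in SCA-1+ cells, by 2.21 to 2.73 on the log2 scale (edgeR adjusted p = 0.00452 to 0.0326), while *Epcam*, also expressed by keratinocytes of the follicle, had -0.56 (edgeR adjusted p = 0.0300). The sum of the 6, none at 0, was 481 to 987 normalized CPM in SCA-1+ and 362 to 702 in SCA-1neg libraries. The part of these markers in the difference of *Itga6* was not tested.

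*Itgb4* (ENSMUSG00000020758, chromosome 11, 115974709 to 116008412), the partner subunit of the integrin, had 464, 609 and 647 normalized CPM in tdT+ SCA-1neg, 776, 722 and 648 in tdTneg SCA-1neg, 890, 565 and 810 in tdT+ SCA-1+ and 788 and 871 in tdTneg SCA-1+ libraries. The populations overlapped, through the low replicate 2 of tdT+ SCA-1+ cells. The log2 fold change was 0.31 (95% confidence interval -0.03 to 0.64, edgeR adjusted p = 0.183). In order of the mean the groups were tdT+ SCA-1neg (573), tdTneg SCA-1neg (715), tdT+ SCA-1+ (755) and tdTneg SCA-1+ cells (830), and neighbours in this order overlapped, except that the first pair just did not (647.0 against 647.6 normalized CPM at the nearest).

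*Cd151* (ENSMUSG00000025510, chromosome 7, 141467392 to 141471473) had 154, 158 and 205 normalized CPM in tdT+ SCA-1neg, 189, 221 and 214 in tdTneg SCA-1neg, 120, 141 and 133 in tdT+ SCA-1+ and 173 and 206 in tdTneg SCA-1+ libraries. The tdT+ SCA-1+ cells were thus the lowest group, below every other library. SCA-1+ against SCA-1neg cells gave a log2 fold change of -0.26 as the mean (standard error 0.11, edgeR adjusted p = 0.126), -0.39 within tdT+ (edgeR adjusted p = 0.110) and -0.14 within tdTneg cells (edgeR adjusted p = 0.701), so that no comparison was called. Leaving out the library labelled tdT+ SCA-1neg replicate 2 gave -0.29 as the mean (edgeR adjusted p = 0.122) and -0.45 within tdT+ cells (edgeR adjusted p = 0.122).

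*Col17a1* (ENSMUSG00000025064, chromosome 19, 47646344 to 47692094), whose product is known to be needed to keep hair follicle stem cells in their niche, had 4040, 5113 and 6429 normalized CPM in tdT+ SCA-1neg, 7402, 5555 and 6939 in tdTneg SCA-1neg, 7600, 4048 and 6029 in tdT+ SCA-1+ and 4566 and 4257 in tdTneg SCA-1+ libraries. The log2 fold change was -0.20 (95% confidence interval -0.68 to 0.27, edgeR adjusted p = 0.545). It was 0.18 within tdT+ cells, whose libraries overlapped, and -0.59 within tdTneg cells (edgeR adjusted p = 0.330), whose 2 SCA-1+ libraries were below the 3 SCA-1neg libraries. Of all genes 46.3% did not overlap in this comparison of 2 with 3 libraries, and 5 of the 8 did not (*Itga6*, *Itgb4*, *Col17a1*, *Plec* and *Lamb3*).

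Of the 2 plakins, plectin was the one with a small p. *Plec* (ENSMUSG00000022565, chromosome 15, 76170974 to 76232574) had 919, 831 and 1087 normalized CPM in tdT+ SCA-1neg, 886, 1117 and 800 in tdTneg SCA-1neg, 1391, 995 and 1716 in tdT+ SCA-1+ and 1269 and 1562 in tdTneg SCA-1+ libraries. Apart from replicate 2 of tdT+ SCA-1+ cells the SCA-1+ libraries were above all SCA-1neg libraries. At 1.48-fold (95% confidence interval 1.13 to 1.93) the log2 fold change of 0.57 passed the adjusted p (edgeR, 0.0457), as 19.3% of genes did, but not the fold threshold. Without the library labelled tdT+ SCA-1neg replicate 2 it was 0.52 (edgeR adjusted p = 0.0888), and over all alternatives the adjusted p ran from 0.00348 to 0.170. *Dst* (ENSMUSG00000026131, chromosome 1, 33908225 to 34308661) had 1128 to 2017 normalized CPM in tdT+ SCA-1neg, 1332 to 1781 in tdTneg SCA-1neg, 1238 to 2074 in tdT+ SCA-1+ and 1246 to 1359 in tdTneg SCA-1+ libraries. All 4 groups overlapped, and the log2 fold change of -0.08 (95% confidence interval -0.51 to 0.36, edgeR adjusted p = 0.819) changed sign in 2 of the alternatives.

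The laminin chains did not share a direction. *Lama3* (ENSMUSG00000024421, chromosome 18, 12333819 to 12583013) had 228, 290 and 339 normalized CPM in tdT+ SCA-1neg, 380, 294 and 368 in tdTneg SCA-1neg, 438, 305 and 345 in tdT+ SCA-1+ and 376 and 314 in tdTneg SCA-1+ libraries, with overlap throughout. Its log2 fold change was 0.17 (95% confidence interval -0.16 to 0.50, edgeR adjusted p = 0.465). *Lamb3* (ENSMUSG00000026639, chromosome 1, 193207699 to 193343878) had 495, 557 and 818 normalized CPM in tdT+ SCA-1neg, 737, 636 and 804 in tdTneg SCA-1neg, 598, 413 and 556 in tdT+ SCA-1+ and 435 and 466 in tdTneg SCA-1+ libraries. The 3 highest libraries were SCA-1neg and the 3 lowest SCA-1+. Its log2 fold change was -0.47 (standard error 0.16, 95% confidence interval -0.84 to -0.10, edgeR adjusted p = 0.0722), with -0.25 within tdT+ (edgeR adjusted p = 0.466) and -0.69 within tdTneg cells (edgeR adjusted p = 0.148). Leaving out the library labelled tdT+ SCA-1neg replicate 2 gave -0.51 as the mean (edgeR adjusted p = 0.0791) and -0.33 within tdT+ cells (edgeR adjusted p = 0.422). For 3 of the 8 genes the mean log2 difference had opposite signs at 29 and at 32 weeks. They were *Col17a1* (0.11 and -0.38), *Dst* (0.22 and -0.23) and *Lama3* (0.46 and -0.01). *Lamb3* (-0.24 and -0.55), *Plec* (0.56 and 0.59), *Itgb4* (0.48 and 0.23) and *Cd151* (-0.24 and -0.24) kept theirs. Within tdT+ cells, however, *Lamb3* had 0.27 at 29 and -0.49 at 32 weeks. The 29-week values rest on replicate 1 of each group alone.

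**Figure D2:**
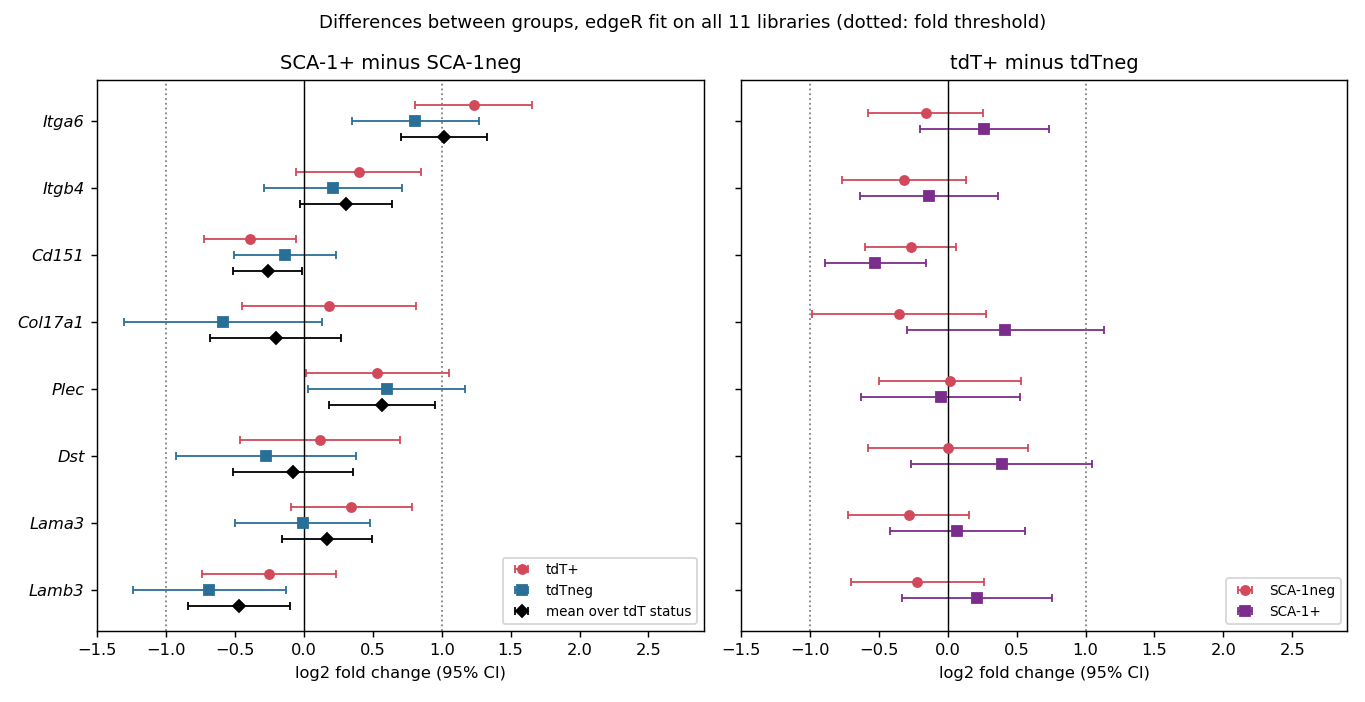
Log2 fold change of each gene with its 95% confidence interval (x axis) for SCA-1+ against SCA-1neg cells (left) and tdT+ against tdTneg cells (right), with dotted lines at the fold threshold. *Itga6* lies at 1.02 as the mean over tdT status, *Lamb3* at -0.47, and the intervals for tdT status span 0 for each of the 8 genes except *Cd151* in SCA-1+ cells.

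Because the products of these genes work as partners, the ratio of their counts within the same library was compared between the populations. A ratio does not depend on the depth or the scaling of a library, and since gene lengths differ it compares libraries, not numbers of molecules. For 4 ratios the mean log2 ratio of 5 SCA-1+ and 6 SCA-1neg libraries was tested by an exact permutation test over 462 arrangements, with p-values adjusted over the 5 ratios that were computed. All 4 had an adjusted p under 0.05, and in 2 of them the libraries of the populations did not overlap. How often ratios of other gene pairs do so was not computed. The ratios were chosen with earlier results of these data known. *Itga6* separated the populations by itself, so its ratio with *Itgb4* is no independent result. Because libraries of 1 replicate number were taken to share mice, the ratios were also compared with the replicate number as a block, an alternative chosen after the data were seen. The population labels were then permuted only within each number, with 108 arrangements and 0.00926 as the smallest p. The 4 ratios had blocked differences of -0.79 (*Itgb4* to *Itga6*), -0.59 (*Lamb3* to *Lama3*), 0.54 (*Plec* to *Dst*) and -0.42 (*Col17a1* to *Itgb4*) on the log2 scale, with an adjusted exact permutation p of 0.0463 for *Plec* to *Dst* and 0.0116 for the other 3.

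The ratio of *Itgb4* to *Itga6* was 1.20, 1.11 and 1.14 in tdT+ SCA-1neg, 1.26, 1.41 and 1.18 in tdTneg SCA-1neg, 0.697, 0.572 and 0.643 in tdT+ SCA-1+ and 0.771 and 0.934 in tdTneg SCA-1+ libraries. Every SCA-1neg library thus had more counts of *Itgb4* than of *Itga6*, and every SCA-1+ library fewer. The log2 ratio was -0.49 ± 0.27 (SD, n = 5) in SCA-1+ and 0.28 ± 0.12 (SD, n = 6) in SCA-1neg cells, a difference of -0.77 (exact permutation p = 0.00216, the smallest that 462 arrangements allow, adjusted p = 0.00361). Without the library labelled tdT+ SCA-1neg replicate 2 the difference was -0.79 (exact permutation p = 0.00794).

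Between the laminin chains the ratio of *Lamb3* to *Lama3* was 1.92 to 2.41 in the 6 SCA-1neg libraries and 1.16 to 1.61 in the 5 SCA-1+ libraries. The difference was -0.62 on the log2 scale (exact permutation p = 0.00216, adjusted p = 0.00361), with -0.58 within tdT+ and -0.67 within tdTneg cells. Without the library labelled tdT+ SCA-1neg replicate 2 it was -0.64 (exact permutation p = 0.00794). So *Lamb3* was lower relative to *Lama3* in SCA-1+ cells, while neither passed the test by itself.

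The other ratios overlapped between the populations. *Plec* to *Dst* was 0.449 to 0.838 in SCA-1neg and 0.768 to 1.25 in SCA-1+ libraries, a log2 difference of 0.58 (exact permutation p = 0.0325, adjusted p = 0.0325) that missed the threshold when 1 of 5 libraries was left out: tdT+ SCA-1neg replicate 2 or 3, tdTneg SCA-1neg replicate 1 or 3, or tdTneg SCA-1+ replicate 2 (adjusted p = 0.0571 to 0.0714 by the exact permutation test). The difference of *Plec* to *Dst* was 0.38 within tdT+ cells, whose libraries overlapped, and 0.87 within tdTneg cells. Its highest values, 0.934 and 1.25, were those of the tdTneg SCA-1+ libraries. *Col17a1* to *Itgb4* was 7.70 to 10.7 in SCA-1neg and 4.89 to 8.54 in SCA-1+ libraries. The log2 difference was -0.46 (exact permutation p = 0.0130, adjusted p = 0.0162). It was -0.22 within tdT+ and -0.79 within tdTneg cells, and -0.48 without the library labelled tdT+ SCA-1neg replicate 2 (exact permutation p = 0.0159). The lowest values of this ratio, 5.80 and 4.89, were those of the tdTneg SCA-1+ libraries, in which the endothelial markers were high. Their part in either ratio was not tested. Each of the 4 ratios had the same direction at 29 and at 32 weeks, from -0.75 and -0.79 for *Itgb4* to *Itga6* to 0.34 and 0.72 for *Plec* to *Dst*.

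**Figure D3:**
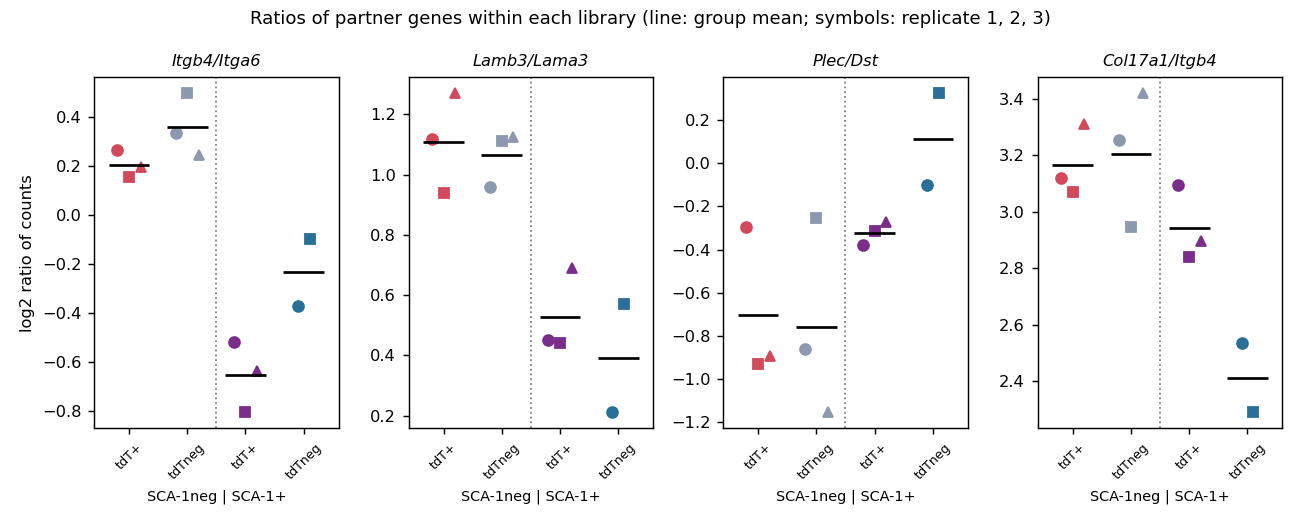
Log2 ratio of the counts of 2 genes in the same library (y axis) by tdT status, with SCA-1neg groups left and SCA-1+ groups right of the dotted line, symbols for replicates 1 to 3 and a line at each group mean. For *Itgb4* to *Itga6* and *Lamb3* to *Lama3* the SCA-1+ and SCA-1neg libraries do not overlap. How often ratios of other gene pairs do so was not computed.

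Whether the progeny of *Cd4* Cre-expressing cells differs from its tdTneg counterpart in anchorage genes was asked next. In SCA-1neg cells 0 of the 8 genes were called, where 2 of 20307 genes (0.00985%) were. With the replicate number as a block 4 genes were called, and none of the 8. At an unadjusted p under 0.05 there were 0 of the 8 and 8.42% of all genes, and DESeq2 and limma also called 0 of the 8. The libraries of 1 of the 8 (*Itgb4*) did not overlap, where those of 16% of genes did not. The log2 fold changes of tdT+ against tdTneg SCA-1neg cells ranged from -0.35 for *Col17a1* (95% confidence interval -0.98 to 0.28) to 0.02 for *Plec* (-0.50 to 0.53), with *Itga6* at -0.16 (-0.58 to 0.26) and *Itgb4* at -0.32 (-0.77 to 0.13). They were, without the library labelled tdT+ SCA-1neg replicate 2, between -0.37 for *Itgb4* and 0.10 for *Plec*. What size of difference could be detected with 3 libraries a group was not computed, and these intervals do not give it. A call also needed the adjusted p and the fold threshold, so that differences within or beyond these intervals may have gone uncalled.

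In SCA-1+ cells 0 of the 8 genes were called between tdT+ and tdTneg cells, where 2.31% of genes were, nor by DESeq2 or limma, and 1 of the 8 had an unadjusted p under 0.05, where 14.6% of genes did. This gene was *Cd151*, with 120, 141 and 133 normalized CPM in tdT+ and 173 and 206 in tdTneg libraries. They did not overlap, like those of 33% of all genes, and the log2 fold change was -0.52 (standard error 0.16, 95% confidence interval -0.89 to -0.16, edgeR adjusted p = 0.154, and 0.0491 to 0.789 over the alternatives). The tdTneg libraries are those with high endothelial markers (1814 and 1877 normalized CPM in sum, against 38.1 to 68.3), and endothelial cells are known to express *Cd151*. The Langerhans cell markers were also higher there (883 and 987 normalized CPM in sum, against 481 to 686), and the T cell markers lower (185 and 196, against 512 to 1201). The part of these markers in the difference was not tested. *Itga6* was at 0.27 (95% confidence interval -0.20 to 0.74), *Col17a1* at 0.42 (-0.30 to 1.13), *Dst* at 0.39 (-0.26 to 1.04) and *Lamb3* at 0.21 (-0.33 to 0.76).

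The effect of tdT status was not found to differ between the populations for any of the 8 genes, where 0.389% of all genes were called for such a difference. *Col17a1* had the largest difference of the 8, 0.77 on the log2 scale (95% confidence interval -0.18 to 1.72, edgeR adjusted p = 0.508), and *Itga6* had 0.43 (-0.20 to 1.05, edgeR adjusted p = 0.591), and with the library labelled tdT+ SCA-1neg replicate 2 left out these were 0.76 (edgeR adjusted p = 0.622) and 0.50 (edgeR adjusted p = 0.610). At an unadjusted p under 0.05 there were 0 of the 8 genes and 12.4% of all genes, and DESeq2 and limma called 0 of the 8.

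Within the groups most of the 8 genes went up and down together. The deviations of the log2 normalized CPM from the group means over the 11 libraries had Pearson correlations of 0.68 to 0.93 (median 0.85) in the 15 pairs of *Itga6*, *Itgb4*, *Col17a1*, *Dst*, *Lama3* and *Lamb3*. The pairs with *Plec* had 0.05 to 0.64 and those with *Cd151* -0.07 to 0.35. Replicate 1 of tdT+ SCA-1neg and replicate 2 of tdT+ SCA-1+ cells were the lowest of their groups in all of the first 6 genes. Over all libraries, with the differences between groups kept, the 15 correlations ranged from -0.41 (*Itga6* with *Lamb3*) to 0.83 (*Col17a1* with *Lamb3*). Libraries of 1 replicate number were taken to share mice, all share their scaling, and these correlations are a description only. How other gene pairs correlate within groups was not computed. Genes outside the set reached higher values within groups, such as *Thra* with *Lamb3* (0.99) and *Trp53bp2* with *Dst* (0.98).

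**Figure D4:**
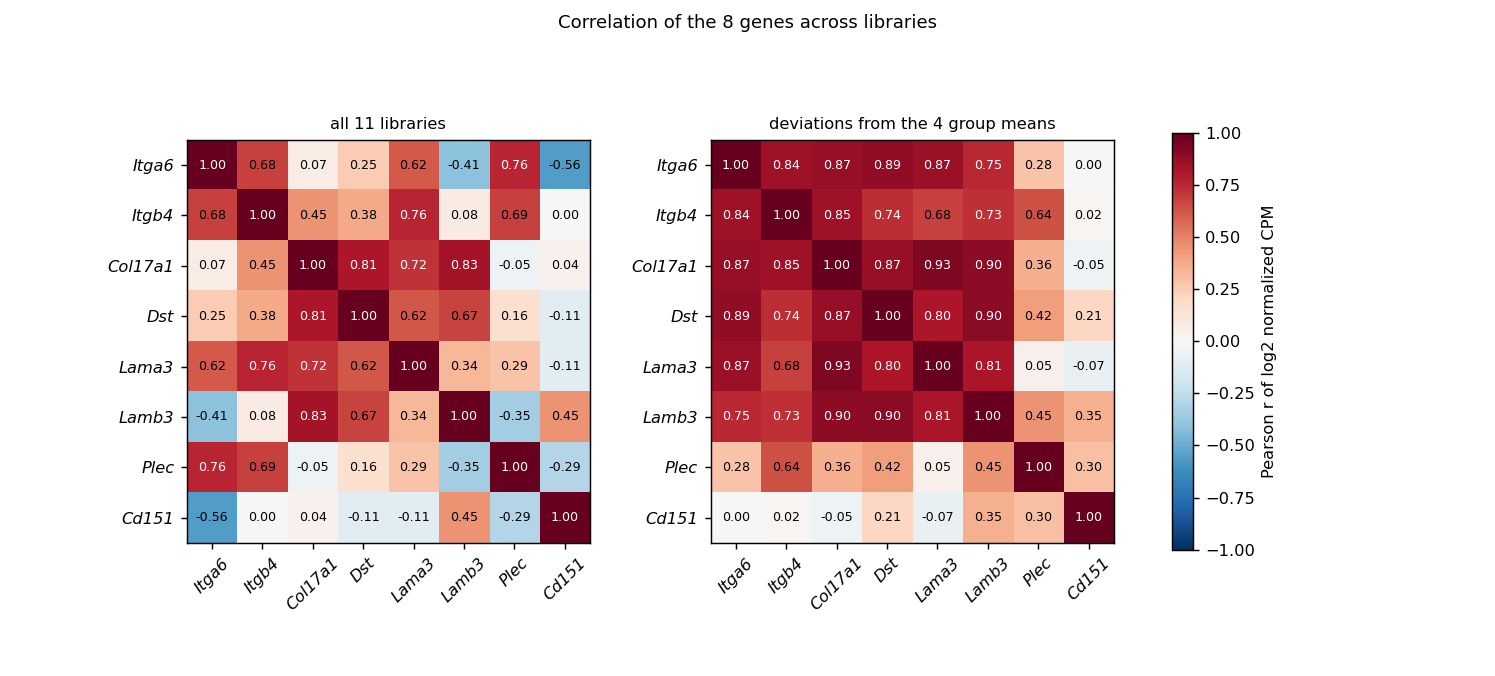
Pearson correlation (colour and number) of log2 normalized CPM for each pair of the 8 genes over the 11 libraries, as measured (left) and as deviations from the 4 group means (right). The 15 pairs of the first 6 genes lie between 0.68 and 0.93 on the right, while *Cd151* lies between -0.07 and 0.35 with all others.

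By the same measure over 11 libraries and 15090 genes above 1 normalized CPM on average, the genes whose pattern was most like that of *Itga6* were *Pak2* (r = 0.98), *Card10* (0.98) and *Sema4b* (0.98). For *Itgb4* they were *Pigq* (0.96), *Pcnt* (0.93) and *Klhl18* (0.93), for *Cd151* *Rab11fip5* (0.97), *Ctnnb1* (0.95) and *Calu* (0.94), and for *Col17a1* *Qsox2* (0.95), *Ldb1* (0.95) and *Zfp629* (0.95). *Plec* was most like *Dnm2* (0.95), *Klf13* (0.94) and *Cmip* (0.94), and *Dst* most like *Trp53bp2* (0.98), *Mrgbp* (0.97) and *Nr1d1* (0.94). *Lama3* was followed by *Atf7* (0.95), *Tbl1x* (0.94) and *Khdc4* (0.92) and *Lamb3* by *Thra* (0.97), *Efs* (0.97) and *Trip6* (0.97). None of the 8 genes was among the 3 most like another of the 8.

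Of 30 other genes of anchoring and the basement membrane, a list chosen like the 8 with results known, 1 was called higher and 4 lower in SCA-1+ cells as the mean over tdT status, where 4.77% of all genes were called higher and 6.79% lower. *Krt14*, a keratin to which the hemidesmosome attaches, was the one that rose, from 2615 to 5010 normalized CPM in the SCA-1neg libraries to 6293 to 14634 in the SCA-1+ libraries (log2 fold change 1.28, edgeR adjusted p = 0.00156). Its basal partner *Krt5* had 0.26 (edgeR adjusted p = 0.347). The 4 that fell were *Npnt* (-1.98, edgeR adjusted p = 0.000368) and *Egfl6* (-2.64, edgeR adjusted p = 0.00150), matrix proteins known from the basement membrane of the bulge, and the collagen IV chains *Col4a3* (-3.40, edgeR adjusted p = 0.00119) and *Col4a4* (-3.07, edgeR adjusted p = 0.00358), both at 76.2 normalized CPM or less in every library. The same 5 genes were called without the library labelled tdT+ SCA-1neg replicate 2. The median log2 fold change of the 30 was -0.15, against -0.09 over all genes. The other laminin receptor and ligand genes were not called: *Itga3* had 0.40 (edgeR adjusted p = 0.0824), its partner *Itgb1* 0.26 (edgeR adjusted p = 0.102) and the laminin chain *Lama5* -0.33 (edgeR adjusted p = 0.330). *Col7a1*, which encodes the anchoring fibrils beneath laminin-332, had -0.36 (edgeR adjusted p = 0.298).

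Within tdT+ cells 2 of the 30 were called higher (*Krt14* and *Col4a6*) and 7 lower (*Npnt*, *Egfl6*, *Col4a3*, *Col4a4*, *Hspg2*, *Col4a1* and *Col4a2*), where 8.45% of all genes were called. Within tdTneg cells, where 4.74% were, 1 was called lower (*Npnt*, -2.08, edgeR adjusted p = 0.00933, and 0.102 without tdTneg SCA-1+ replicate 1). This count varied over the alternatives, from 0 without tdTneg SCA-1+ replicate 1 to 4 without tdT+ SCA-1neg replicate 3 (*Nid1* higher, *Npnt*, *Egfl6* and *Col4a3* lower), with 2 without tdTneg SCA-1neg replicate 2 (*Npnt* and *Hspg2*), 2 with the replicate number as a block (*Npnt* and *Egfl6*), 3 with DESeq2 (*Npnt*, *Egfl6* and *Col4a3*) and 7 with limma (3 higher and 4 lower). The call of *Col4a6* (1.04, edgeR adjusted p = 0.0380) held in 2 of the 11 fits that left out a library, with an adjusted p of up to 0.121, and not without the library labelled tdT+ SCA-1neg replicate 2 (edgeR adjusted p = 0.0788). This value sits at the fold threshold: it was lost with DESeq2 (0.997), RLE size factors (0.997), both other count filters (0.98 and 0.97), the replicate number as a block (0.97) or only the groups compared (edgeR adjusted p = 0.0747), and kept with limma. *Itga3* had 0.86 within tdT+ cells (edgeR adjusted p = 0.0198), with libraries that did not overlap, like those of 30.4% of all genes, and it was called there when tdT+ SCA-1+ replicate 2 was left out. Between tdT+ and tdTneg SCA-1+ cells, where 2.31% of all genes were called, 4 were lower, *Hspg2*, *Col4a1* and *Col4a2* by at least 2.76 on the log2 scale and *Lamb2*, named after its values were seen, by 1.22. Over the alternatives 3 to 7 were lower and 0 higher, with 7 in the fit of only the groups compared. The call of *Lamb2* (edgeR adjusted p = 0.0421) held in 3 of the 11 fits that left out a library, and neither without the library labelled tdT+ SCA-1neg replicate 2 (edgeR adjusted p = 0.0566) nor with the replicate number as a block (edgeR adjusted p = 0.0729), while *Hspg2*, *Col4a1* and *Col4a2* were called in each of the 11. *Hspg2*, *Col4a1* and *Col4a2* are also abundant in vessels, and they were highest on average in the tdTneg SCA-1+ libraries, in which the endothelial markers summed to 1814 and 1877 normalized CPM. Their part in these differences was not tested.

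**Figure D5:**
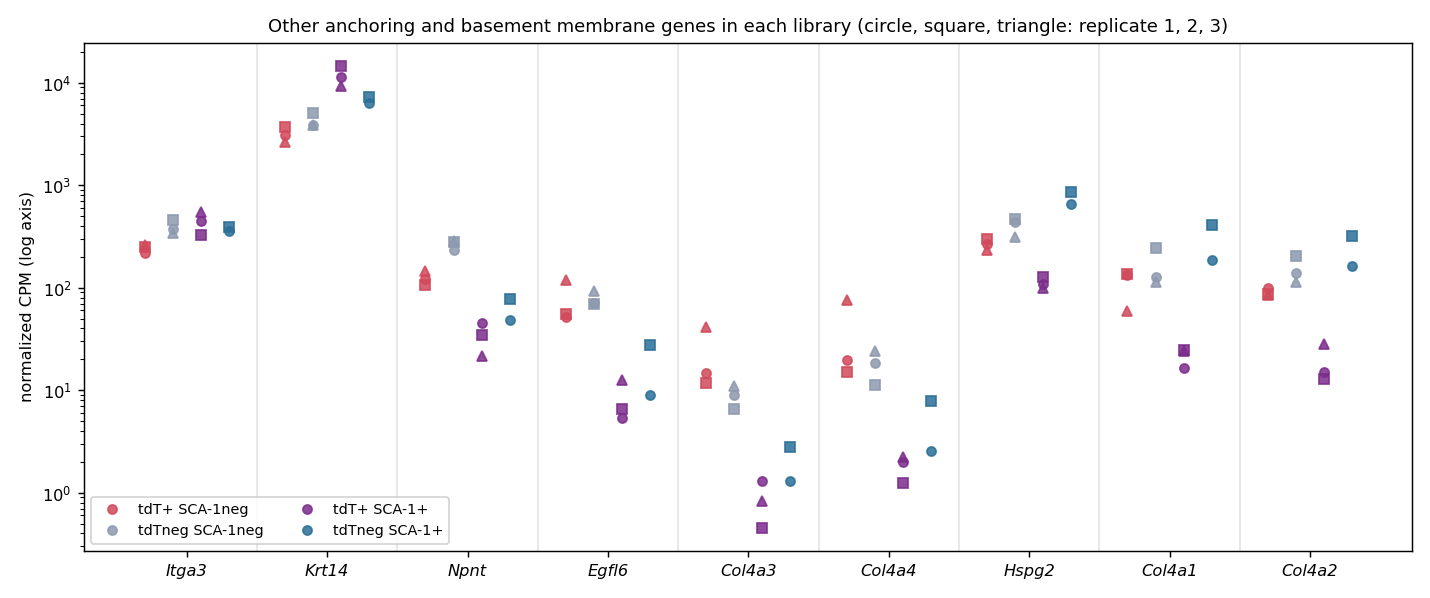
Normalized CPM (y axis, log scale) of 9 of the other anchoring and basement membrane genes in each library, with colours for the 4 groups and symbols for replicates 1 to 3. *Krt14* is higher in all SCA-1+ than in all SCA-1neg libraries, and *Npnt*, *Egfl6*, *Col4a3* and *Col4a4* are lower.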

How the data were processed

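RNA of 11 libraries was analysed from the processed files. Per the labels, the group of each library is its sorted population and the replicate number stands in its title. The deposited files hold whole-number counts per Ensembl gene without normalization, which the authors made with STAR and featureCounts on mm10 (Ensembl release 96), and the submitters' processing notes also name bcl2fastq 2.20.0.422, FastQC and DESeq2 1.18.1. The strand setting is not given in the sources used here. The row outside the Ensembl genes, 0.000205% to 0.0307% of the counts of a library, was kept out of totals and tests.

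Tests used edgeR 4.0.16 under R 4.3.3, with TMM scaling, filterByExpr, and glmQLFit and glmQLFTest with 1 mean per group, on all 20307 genes that passed the filter, and with DESeq2 1.42.0 and limma 3.58.1 as alternatives. Standard errors and 95% confidence intervals were derived from the F-statistics. Normalized CPM are counts per 1e6 counts of a library, scaled by TMM, and levels per kb use the exon bases of GENCODE M21, which is Ensembl 96 on GRCm38. Correlations use log2 normalized CPM with a prior count of 2. Ratios had 1 added to each count and were tested in Python 3.11.15 with numpy 2.4.6. Of the 5 ratios computed, 1 is not reported here. The procedures were tested on simulated data. Totals of 17409131 to 46542177 counts set the depth, and the common biological coefficient of variation was 0.61. The 8 genes, the lists, the ratios and the alternatives were chosen with earlier results of these data known. Named were the 8 genes, the genes of the sort antigens SCA-1 and CD34, a fixed set of the 30 anchoring genes plus those called between the populations, and the 3 genes most like each of the 8. Libraries with 1 replicate number were taken to come from the same 2 mice, because the study describes 3 biological replicates of 2 mice each. It does not state that all populations of a number were sorted from the same isolate, so this is a reading of its methods. The deviations of 2 libraries from their group means correlated across genes with a median of 0.08 in the 15 pairs of equal number and -0.02 in the 30 other pairs. The ranges were wide, -0.42 to 0.59 and -0.60 to 0.51. Of the 11 libraries, 7 correlated best with a library of their own number.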

Additional observations from a re-analysis of the deposited data

Results flagged for a closer look

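*Itgb4* in the tdT+ SCA-1+ replicate 2 library stood far from the other SCA-1+ libraries, with a log2 normalized CPM of 9.14 against 9.62 to 9.80. Its gap to the nearest of them was 0.733 of the range, above the limit of 0.71 for 5 libraries. Of 26 sets of values examined in this way (the 8 genes and 5 ratios in each population) this was the 1 that passed, and chance passes about 1 in 20.

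The row of the files outside the Ensembl genes, which entered no comparison, was above every tdTneg library (2.54 to 4.89 CPM) in 5 of the 6 tdT+ libraries, where it ranged from 133 to 307 CPM.

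The effect of tdT status differed between the populations for *Hspg2*, by -2.16 on the log2 scale (standard error 0.29, edgeR adjusted p = 0.0134), and for *Col4a2*, by -2.96 (standard error 0.51, edgeR adjusted p = 0.0453). Leaving out a library kept the *Hspg2* call in 8 of 11 cases, with an adjusted p of up to 0.0981 (it was lost without tdTneg SCA-1neg replicate 1, tdT+ SCA-1+ replicate 1 or tdTneg SCA-1+ replicate 2), and the *Col4a2* call in 3 of 11, with an adjusted p of up to 0.230. Without the library labelled tdT+ SCA-1neg replicate 2 the values were -2.06 (edgeR adjusted p = 0.0314) and -2.99 (edgeR adjusted p = 0.0863), and with the replicate number as a block -2.05 (edgeR adjusted p = 0.0114) and -2.99 (edgeR adjusted p = 0.0786). Both were lower in tdT+ than in tdTneg SCA-1+ cells. The endothelial markers were high in the tdTneg SCA-1+ libraries, and their part was not tested.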

How the results depend on the processing

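The number of the 8 genes called between the populations as the mean over tdT status was 1. It was 0 with genes of at least 1 count in any library kept (*Itga6* at 0.99), 2 with no fold threshold (*Plec* added) and from 0 to 1 with 1 library left out. In all other alternatives (DESeq2, RLE size factors, at least 10 counts in every library, limma with library weights) and in the other 5 comparisons the number did not change. The replicate number as a block changed no call of the 8 genes, and *Itga6* had a log2 fold change of 1.04 (edgeR adjusted p = 0.00304) in the blocked fit. Within tdT+ cells *Itga6* was called in all 18 alternatives, from 1.08 to 1.33. With 1 library left out the ratio of *Plec* to *Dst* differed by 0.46 to 0.68, not always past the threshold, while *Itgb4* to *Itga6* (-0.87 to -0.69), *Lamb3* to *Lama3* (-0.67 to -0.55) and *Col17a1* to *Itgb4* (-0.55 to -0.35) stayed past it. Permutation within tdT status, permutation within the replicate number as a block and 0.5 in place of 1 added to each count left all 4 past it.

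Counts of all genes called moved more: from 1160 to 3540 over the alternatives for the populations (2347), 1174 to 3423 within tdT+ (1715), 55 to 2710 within tdTneg (963), 97 to 1230 for tdT in SCA-1+ cells (470), 0 to 377 for tdT in SCA-1neg cells (2) and 1 to 845 for the interaction of tdT status with population (79). RLE size factors moved the median log2 value of all genes for the interaction from 0.05 to -0.07. Leaving out a tdTneg SCA-1+ library leaves 1 in that group, which is then assumed to vary like the others. With 2 or 3 libraries a group, 95% confidence intervals of the 8 genes for tdT status in SCA-1+ cells were as wide as -0.30 to 1.13 (*Col17a1*).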
